A study of Mus musculus with 10 samples.

Results

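Solute carriers are membrane proteins that move amino acids, sugars, nucleotides, vitamins, metals and ions across the cell surface and the membranes of organelles. Their mouse genes carry the symbol Slc followed by a family number, so 1 family groups carriers of related sequence and often of related substrate. Some work as pairs, such as the amino acid exchangers in which a heavy chain brings a light chain to the surface, and the Slc25 family sits in the inner mitochondrial membrane. Here the protein-coding Slc genes were described in cultured mouse bone marrow cells, leaving out Slc18a2, Slc17a9, Slc2a1 and Slc16a3. Of 371 protein-coding genes with such a symbol, these 4 were left out and 367 were considered. A gene was kept where its summed transcripts reached a mean of 1 TPM (transcript level per length, scaled to a fixed total per library) over the 10 libraries, which 175 genes did and 192 did not, 41 of the latter with 0 counts in every library. The last genes kept were Slc25a29 at 1.07 TPM, Slc22a21 at 1.04 TPM and Slc17a7 at 1.03 TPM, and the first left out were Slc4a3 at 0.996 TPM, Slc5a3 at 0.991 TPM and Slc16a4 at 0.978 TPM. Of the 175 genes, 3 are named after a carrier without being one, namely Slc9a3r1, Slc7a6os and Slc4a1ap. All 175 passed the filter on low counts used for the tests.

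The cells were lineage-negative (Lin-), Kit-positive bone marrow cells, grown in IMDM with 15% serum, IL3, IL6 and SCF, sorted for green fluorescence and expanded before polyA RNA was taken. They carried an empty vector (EV, 2 libraries), or over-expressed full-length wild-type ASXL2 (2 libraries) or 1 of 3 mutant forms of ASXL2 (2 libraries each, 6 in all), ASXL2 being a chromatin-binding partner of the deubiquitinase BAP1. The culture and the sort are described alike for all groups, while mouse strain, age and the nature of the mutations were not stated. Whether replicates came from separate cultures is not stated, so the p-values refer only to the spread among the libraries, part of which may be technical.

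Library totals ran from 52422686 to 79320702 estimated counts. Asxl2 stood between 107 and 111 CPM (counts scaled to a fixed library total) in the EV libraries, between 992 and 1384 CPM with full-length ASXL2 and between 790 and 1892 CPM in the mutants. The labels name 2 batches, and the names of the deposited tables also mark 2, by an ending. The 2 disagree for mutant 1 replicate 2, which by its file name is batch 1, and for mutant 3 replicate 1, which is batch 2. In 4 mutant libraries the mutant number also differs, so the mutants were pooled. Over the 175 genes, the first principal component held 51.1% of the variance and split the 5 libraries of file-name batch 1 from the 5 of batch 2 without overlap. In what follows "batch" means the batch of the file names. Of the 12 mast cell and basophil markers, 10 averaged 10 TPM or more and only Tpsab1 was under 1 TPM (summed range 56799 to 69171 TPM). Their levels were uneven, with Cpa3 at 24091 TPM on average. Mcpt4, Hdc, Mcpt8 and Prss34 averaged only 32.6, 17.5, 11.2 and 5.55 TPM. All 7 lineage markers that the sort removes and all 4 stromal markers were under 1 TPM.

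Amino acid carriers held the largest part of the carrier message. The 175 genes together made up 0.726% ± 0.045 of all TPM (SD, n = 10 libraries, range 0.655 to 0.793%). Of that, 29 amino acid and peptide carriers held 34.6% ± 0.68, 37 mitochondrial carriers 22% ± 0.96, 24 metal and heme carriers 11.4% ± 0.19 and 20 nucleotide sugar carriers of the Golgi and endoplasmic reticulum 7.87% ± 0.12. Sugar and inositol carriers (10 genes) held 7.42% ± 0.68 and carriers of inorganic ions and pH (23 genes) 6.23% ± 0.78. The remaining classes, among them 7 vitamin, 4 nucleoside, 4 monocarboxylate and 4 choline and lipid carriers, each held under 1.3%, apart from the 3 genes that are no carriers (5.25% ± 0.18, most of it from Slc9a3r1). The message was uneven within classes: the 12 highest genes held 48.4% of it, 16 genes averaged 100 TPM or more, and the median gene stood at 16.5 TPM.

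**Figure D1:**
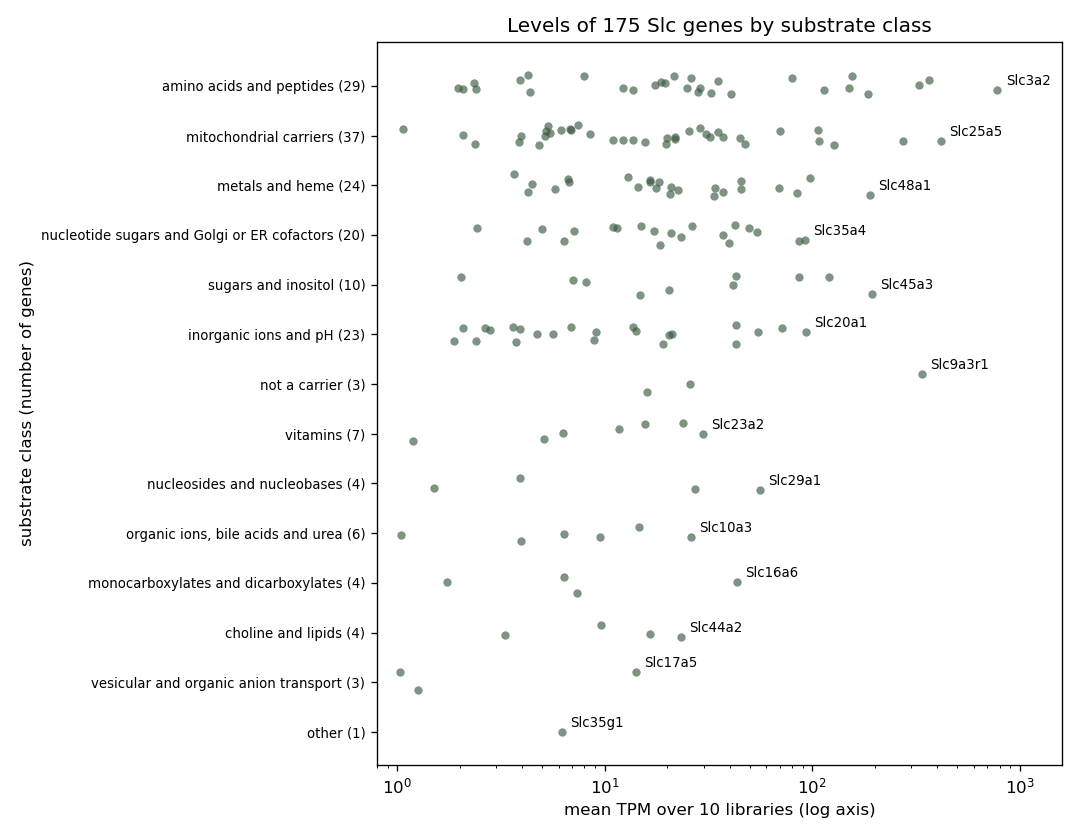
Mean TPM over the 10 libraries (log axis) of each of the 175 genes, by substrate class, with the highest gene of each class named and small vertical scatter to separate points. Slc3a2 at 781 TPM stands apart from all others, and 7 of the 14 classes have their highest gene under 60 TPM.

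Slc3a2, the heavy chain (CD98) that carries several light chains to the cell surface, was the highest of the 175 genes at 781 ± 56.8 TPM (mean ± SD, n = 10 for all levels here). It stood at 862 and 828 TPM in the EV libraries, at 703 and 865 TPM with full-length ASXL2 and from 724 (median 763) to 795 TPM in the mutants. Its lowest library, 703 TPM, exceeded the highest library of every other gene of the 175, the next being Slc25a5 at 541 TPM. Ucp2, a carrier without an Slc symbol, averaged 701 TPM (571 to 832 TPM), a range that overlapped that of Slc3a2. Among the light chains of Slc3a2, Slc7a8 (LAT2) reached 367 ± 39.9 TPM and Slc7a5 (LAT1, the large neutral amino acid exchanger) 328 ± 61.7 TPM, with overlapping ranges. Slc7a6 followed at 35.4 ± 8.74 TPM, while Slc7a7 stood at 2.07 ± 0.591 TPM and Slc7a11 (xCT, which brings in cystine) at 2.39 ± 0.861 TPM. The 5 light chains summed to 734 ± 60.9 TPM, so Slc3a2 stood at 1.06 ± 0.024 times their sum, with a range of 1.03 to 1.12 over the libraries. Further amino acid carriers above 100 TPM were Slc38a10 at 186 ± 16.5 TPM, the taurine carrier Slc6a6 at 156 ± 24.3 TPM, the glutamine carrier Slc1a5 at 151 ± 24.6 TPM and the glycine carrier Slc6a9 at 114 ± 16 TPM. Only 42.2% of the Slc1a5 level came from transcripts annotated as coding, and the same share was under 50% for 17 of the 175 genes.

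Mitochondrial carriers were led by Slc25a5 (the adenine nucleotide translocase ANT2) at 417 ± 82 TPM and Slc25a3 (the phosphate carrier) at 273 ± 27.5 TPM. Slc25a4, the other adenine nucleotide translocase measured, stood at 69.7 ± 3.89 TPM; no library of Slc25a4 reached the lowest of Slc25a5, though near-identical copies make the counts of both uncertain. The oxoglutarate carrier Slc25a11 (128 ± 10.5 TPM), the citrate carrier Slc25a1 (108 ± 8.97 TPM) and Slc25a39, needed for mitochondrial glutathione (107 ± 18.4 TPM), came next, and these 3 overlapped in their ranges. Slc48a1, which moves heme out of the lysosome, led the metal class at 190.3 ± 17.2 TPM, and the zinc carrier Slc39a7 followed at 97.7 ± 11.6 TPM. Hdac7 overlaps Slc48a1 on the other strand, and without a stated strand setting their reads cannot be told apart. Slc45a3, of a proton-coupled sugar carrier family, led its class at 194 ± 18.2 TPM, ahead of the glucose carrier family members Slc2a6 at 121 ± 14.5 TPM and Slc2a3 at 86.1 ± 10 TPM.

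The other classes had lower leaders. Slc35a4 (92.1 ± 8.96 TPM) and Slc35c2 (86.6 ± 9.14 TPM) led the nucleotide sugar carriers without separating beyond their spread, and the phosphate carrier Slc20a1 (93.6 ± 15.2 TPM) led the ion carriers. The nucleoside carrier Slc29a1 stood at 56 ± 4.96 TPM and the nucleobase carrier Slc43a3 at 27.1 ± 5.4 TPM. Among monocarboxylate carriers Slc16a6 (43.3 ± 8.1 TPM) exceeded Slc16a13 (7.35 ± 1.73 TPM) and Slc16a1 (6.36 ± 1.25 TPM), the lactate carrier MCT1. The vitamin carriers were led by Slc23a2 for ascorbate (29.7 ± 3.7 TPM) and Slc52a3 for riboflavin (23.9 ± 3.61 TPM), the choline and lipid carriers by Slc44a2 (23.3 ± 2.99 TPM) and Slc27a1 (16.5 ± 4.73 TPM), the organic ion carriers by Slc10a3 (26.1 ± 3.68 TPM) and Slc22a23 (14.7 ± 2.75 TPM), and the vesicular class by the sialic acid carrier Slc17a5 (14.1 ± 2.77 TPM) and Slc18b1 (1.26 ± 0.494 TPM). The scaffold Slc9a3r1 stood at 339 ± 22.4 TPM, and Slc7a6os at 25.8 ± 4.01 TPM. Most genes held their level across libraries: 138 of the 175 varied less than 2-fold in TPM between their highest and lowest library, with a median of 1.58-fold beside 1.49-fold for all protein-coding genes of 1 TPM or more. Only 7 varied 4-fold or more, namely Slc15a2, Slc27a3, Slc6a12, Slc22a17, Slc22a21, Slc5a11 and Slc12a9, which were singled out after their values were seen.

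To ask which carriers followed the construct, the classes were compared in CPM with edgeR's quasi-likelihood test over all 17810 genes tested. With full-length ASXL2, 6 of the 175 genes rose and 0 fell, where 0.685% of all genes tested rose and 0.0674% fell, and the median log2 difference was 0.02 over the 175 and -0.01 over all genes. With the mutants 6 rose and 0 fell (1.47% and 0.275% of all genes; medians 0.02 and -0.002). The 2 comparisons share the EV libraries, so their likeness is no separate evidence. All genes tested include genes that are noncoding or under 1 TPM, which the 175 genes by rule do not. The all-gene shares are therefore no matched background for the construct counts here and below. The genes that rose came from several classes: 2 of 23 ion carriers (Slc12a7 and Slc4a11 with full-length ASXL2, Slc12a7 and Slc12a9 with the mutants), and, in both comparisons, 1 of 24 metal carriers (Slc41a1), 1 of 10 sugar carriers (Slc45a4), 1 of 7 vitamin carriers (Slc52a3) and 1 of 6 organic ion carriers (Slc22a21). None of the 29 amino acid carriers and none of the 37 mitochondrial carriers passed the test in these fits.

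Slc41a1, a sodium-magnesium exchanger at chromosome 1, 131827493 to 131848865 (GRCm38), stood at 6.31 and 6.89 CPM in the EV libraries, 13.8 and 14.2 CPM with full-length ASXL2 and from 15.1 (median 16.2) to 19 CPM in the mutants. Every library with a construct exceeded both EV libraries. The log2 fold change was 1.08 ± 0.13 (SE; edgeR, adjusted p = 0.0101) with full-length ASXL2 and 1.32 ± 0.11 (SE; edgeR, adjusted p = 0.00111) with the mutants. Within batches the log2 difference of the constructs from the EV library was 1.35 in batch 1 and 1.18 in batch 2, given without a test because each batch has 1 EV library.

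Slc12a7 (KCC4, a potassium-chloride cotransporter at chromosome 13, 73733094 to 73816754) stood at 3.78 and 4.33 CPM with the empty vector, 8.27 and 9.09 CPM with full-length ASXL2 and from 7.9 (median 9.68) to 11.1 CPM in the mutants, again without overlap. It differed from EV by a log2 fold of 1.09 ± 0.17 (SE; edgeR, adjusted p = 0.029) and 1.22 ± 0.15 (SE; edgeR, adjusted p = 0.00541). Slc4a11, a member of the bicarbonate carrier family that conducts protons or hydroxide, stood at 3.2 and 2.96 CPM, 6.99 and 5.92 CPM and from 4.4 (median 4.81) to 5.8 CPM in the same order of groups. Its log2 fold change was 1.07 ± 0.18 (SE; edgeR, adjusted p = 0.0351) with full-length ASXL2, while 0.68 ± 0.15 (SE; edgeR, adjusted p = 0.0619) with the mutants did not pass the test. The highest mutant library lay just under the lower full-length library. The difference between mutants and full-length ASXL2 was -0.39 ± 0.14 (SE; edgeR, adjusted p = 1), so the 2 are not shown to differ.

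Slc45a4, of the family of Slc45a3, rose by less but from a higher level. It stood at 28.6 and 29.7 CPM with the empty vector, 45.3 and 42.9 CPM with full-length ASXL2 and from 38.8 (median 41.6) to 44.2 CPM in the mutants, which gave 0.60 ± 0.09 (SE; edgeR, adjusted p = 0.0208) and 0.50 ± 0.07 (SE; edgeR, adjusted p = 0.0123) on the log2 scale. The riboflavin carrier Slc52a3 stood at 31.4 and 34 CPM, 48.1 and 45.4 CPM and from 45 (median 47.1) to 52.3 CPM, or 0.51 ± 0.09 (SE; edgeR, adjusted p = 0.0404) and 0.55 ± 0.08 (SE; edgeR, adjusted p = 0.0101). Neither gene had an EV library within the range of the construct libraries. The remaining genes that rose, Slc22a21 and Slc12a9, were low, under 2 CPM and under 8 CPM in every library, and under 50% of their level came from coding transcripts. Slc22a21, which lies near its relative Slc22a5 on chromosome 11, gave 1.46 ± 0.26 (SE; edgeR, adjusted p = 0.0404) and 1.94 ± 0.23 (SE; edgeR, adjusted p = 0.00497), and Slc12a9 2.39 ± 0.48 (SE; edgeR, adjusted p = 0.0393) with the mutants. Both stand outside the rule for named genes and are named because they complete the count.

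These calls rest on 2 EV libraries. For full-length ASXL2, 0 of the 175 genes were called without EV replicate 1, without EV replicate 2 or without full-length replicate 2, and 1 without full-length replicate 1 or mutant 3 replicate 2, 2 without mutant 2 replicate 1 and 3 without either mutant 1 library. For the mutants, 1 gene was called without either EV library, Slc41a1, whose adjusted p stayed at or under 0.0308 in all 20 alternatives run for it, with a log2 fold change of 1.12 to 1.44. None of the 12 mast cell and basophil markers passed the test in either comparison without a block. The 6 monocyte and macrophage markers summed to 74.8 to 89.4 TPM in the EV libraries, 39 to 49.3 TPM with full-length ASXL2 and 30 to 55 TPM in the mutants, without overlap with EV, mostly from Cx3cr1. Cx3cr1 differed by -1.08 ± 0.34 (SE; edgeR, adjusted p = 0.284) and -1.17 ± 0.26 (adjusted p = 0.0598), and Csf1r and Cd14 were under 1 TPM. The 6 stem and progenitor markers summed to 2712 to 2885 TPM in EV, 2140 to 2297 TPM with full-length ASXL2 and 2386 to 2986 TPM in the mutants. The 6 erythroid markers summed to 21.9 to 22.4 TPM, 11.5 to 12.6 TPM and 14 to 38.2 TPM in the same order. In both lists the full-length libraries lay below EV without overlap and the mutants overlapped EV. The part of such cells in the carrier differences was not tested.

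With the batch as a block in the fit, more carriers were called: 20 rose and 0 fell with full-length ASXL2 (3.85% and 1.22% of all genes tested), and 25 rose and 12 fell with the mutants (6.82% and 3.99%). All 6 genes called in each comparison without the block were called with it. With the labelled batch as the block, 5 rose and 0 fell with full-length ASXL2 (0.646% and 0.0786% of all genes) and 7 rose and 0 fell with the mutants (1.62% and 0.264%). Markers on the cell type lists also passed the test with the file-name block: the mast cell enzyme gene Hdc (1.14 ± 0.28; SE; edgeR, adjusted p = 0.0425) rose and Cd34 (-0.39 ± 0.10, adjusted p = 0.0339) and Ccr2 (-1.19 ± 0.29, adjusted p = 0.0357) fell with the mutants. The erythroid factor Klf1 rose in both comparisons, by 0.98 ± 0.24 with full-length ASXL2 (adjusted p = 0.0365 by edgeR) and 0.84 ± 0.20 with the mutants (adjusted p = 0.0236). Cd14 (2.08 ± 0.48, adjusted p = 0.0315 by edgeR) and the platelet glycoprotein Gp9 (1.54 ± 0.33, adjusted p = 0.0214) rose with full-length ASXL2. Their part in the carrier differences was not tested. A fit of all construct libraries against the 1 EV library of each batch takes its spread from the construct libraries alone and assumes that EV varies alike, so its calls cannot tell a construct from that library. It gave 17 carriers higher and 7 lower in batch 1 (3.01% and 3.83% of all genes), and 7 higher and 0 lower in batch 2 (0.904% and 0.163%). With the file-name block 5 of 23 ion carriers rose in each comparison, namely Slc12a7, Slc4a11, Slc12a9, the potassium-chloride cotransporter Slc12a4 and Slc8b1, the mitochondrial sodium-calcium exchanger. Slc22a17, the lipocalin-2 receptor, stood at 2.18 and 1.47 CPM with the empty vector, 7.81 and 3.99 CPM with full-length ASXL2 and from 4.33 (median 8.05) to 13 CPM in the mutants. Its batch 1 libraries were the higher ones in each group, and within each batch every construct library exceeded the EV library. With the block it gave 1.64 ± 0.21 (SE; edgeR, adjusted p = 0.00154) and 2.13 ± 0.19 (SE; edgeR, adjusted p = 1.38e-04), and without it 1.70 ± 0.54 (SE; edgeR, adjusted p = 0.284) and 2.20 ± 0.49 (SE; edgeR, adjusted p = 0.0598).

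Among mitochondrial carriers, the ornithine carrier Slc25a15 stood at 3.14 and 3.6 CPM with EV, 6.36 and 8.99 CPM with full-length ASXL2 and from 5.04 (median 6.76) to 9.12 CPM in the mutants, so no construct library fell to the EV level. With the block its log2 fold change was 1.17 ± 0.17 (SE; edgeR, adjusted p = 0.00346) and 0.98 ± 0.15 (SE; edgeR, adjusted p = 0.0023). Slc25a24, an ATP-magnesium and phosphate carrier, gave 0.75 ± 0.16 (adjusted p = 0.0237) and 0.53 ± 0.13 (adjusted p = 0.0322) by edgeR, and Slc35f5 0.72 ± 0.13 (adjusted p = 0.00933) and 0.56 ± 0.11 (adjusted p = 0.00917). The betaine and GABA carrier Slc6a12 rose with full-length ASXL2 by 2.11 ± 0.41 (SE; edgeR, adjusted p = 0.0312), from 11.5 and 3.53 CPM to 32.7 and 22.4 CPM, the EV and full-length libraries of batch 1 being the higher ones. The mutants ran from 6.24 (median 18.8) to 32.5 CPM and overlapped both groups. In the mutants Slc7a6, the light chain y+LAT2, rose by 0.60 ± 0.10 (adjusted p = 0.00607) and Slc8b1 by 0.57 ± 0.10 (adjusted p = 0.0052) by edgeR with the block. These counts moved with single libraries: leaving out EV replicate 1 left 11 calls with full-length ASXL2 and 9 with the mutants, leaving out full-length replicate 2 left 10 with full-length ASXL2, and leaving out mutant 2 replicate 1 left 24 with the mutants.

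The 12 carriers that fell with the mutants under the block included 4 of the 29 amino acid carriers. Slc38a1, a sodium-coupled glutamine carrier, stood at 164, 145, 127, 116 and 117 CPM in batch 1 and 208, 195, 181, 166 and 166 CPM in batch 2, in each batch with the EV library first, full-length ASXL2 second and the mutants after. The EV library was the highest of its batch in both, and the log2 fold change of the mutants was -0.37 ± 0.06 (SE; edgeR, adjusted p = 0.00262). Its relative Slc38a2 fell by less, at -0.23 ± 0.05 (SE; edgeR, adjusted p = 0.0184), as did Slc7a5 at -0.27 ± 0.08 (SE; edgeR, adjusted p = 0.0493) and Slc1a5 at -0.31 ± 0.09 (SE; edgeR, adjusted p = 0.0475). The thiamine carrier Slc19a2 gave the largest fall, -0.67 ± 0.15 (SE; edgeR, adjusted p = 0.0174), with 19 and 19.7 CPM in EV and 9.69 (median 12.7) to 14 CPM in the mutants. The endosomal sodium-proton exchanger Slc9a9 at -0.51 ± 0.09 (adjusted p = 0.00476), the plasma membrane sodium-calcium exchanger Slc8a1 at -0.45 ± 0.12 (adjusted p = 0.0409), Slc25a43 at -0.58 ± 0.14 (adjusted p = 0.0228), Slc25a5 at -0.31 ± 0.08 (adjusted p = 0.0392) and Slc39a7 at -0.26 ± 0.05 (adjusted p = 0.00914) fell too in this edgeR fit. Of the 10 falls named here, 9 lost the call without EV replicate 1, Slc38a2 being the exception, with log2 values then of -0.12 for Slc1a5, -0.13 for Slc25a5, -0.17 for Slc7a5 and -0.30 for Slc38a1. Slc38a2 lost it without EV replicate 2, at -0.16. Over the 13 alternatives run for each, the call was lost in 11 for Slc8a1, 9 for Slc25a5 and 8 for Slc1a5 and Slc7a5. It was lost in 3 or 4 for each of the rest.

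**Figure D2:**
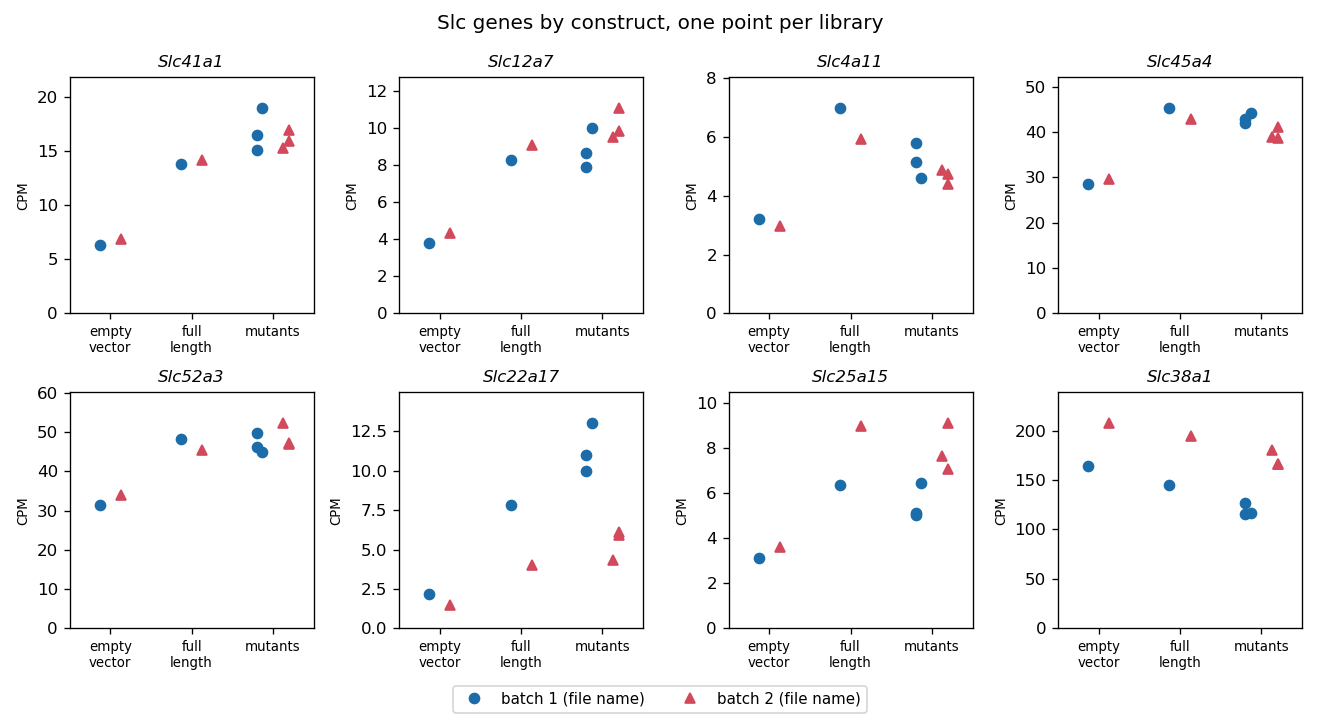
CPM (from 0) of 8 Slc genes in each library by construct class, with circles for file-name batch 1 and triangles for batch 2. Slc41a1, Slc12a7, Slc4a11, Slc45a4 and Slc52a3 lie apart from the empty vector in both batches, Slc22a17 and Slc25a15 differ by construct and by batch, and Slc38a1 is highest with the empty vector within each batch.

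Between mutants and full-length ASXL2, 0 of the 175 genes passed edgeR's test without the block and 0 with it, where 0 of all genes did without it and 0.185% rose and 0.213% fell with it. At an unadjusted p under 0.05 there were 11 of the 175 genes without the block (6.29%, beside 4.04% of all genes tested) and 25 with it (14.3%, beside 11.2%). DESeq2 called 1 gene, the monocarboxylate carrier Slc16a7, at 0.72 ± 0.19 (adjusted p = 0.0496). With the block and without EV replicate 1, or without EV replicate 2, edgeR called the creatine carrier Slc6a8, at -0.32 ± 0.06 in both. Slc16a7 and Slc6a8 are named here because they complete these counts, after their values were seen. The 95% interval of the log2 difference (normal approximation from the SE, without the block) ran from 0.03 to 0.44 for Slc41a1, from -0.14 to 0.40 for Slc12a7, from -0.23 to 0.04 for Slc45a4 and from -0.11 to 0.18 for Slc52a3. It ran from -0.67 to -0.11 for Slc4a11, from 0.08 to 0.88 for Slc22a21 and from -0.75 to 0.81 for Slc12a9. These intervals are not adjusted for the number of genes tested. Counting libraries alone, 27 of the 175 genes (15.4%) had every construct library above both EV libraries, beside 6.91% of all genes tested, and 15 (8.57%) had every one below, beside 4.05%. All genes tested are no matched background for these shares either.

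More carriers were called between batches than between constructs and EV. The batch comparison sets 5 libraries against 5, while the EV comparisons rest on 2 EV libraries, so these counts do not compare effect sizes. In CPM, with the construct class in the fit, 65 of the 175 genes were higher in batch 2 and 36 lower, where 26.6% and 25.9% of all genes tested were. Among the 10771 protein-coding genes of 1 TPM or more that were tested, 40.5% were higher and 20.5% lower, so the carriers' 37.1% and 20.6% stood near that background. The median log2 difference was 0.08 over the 175 genes, 0.08 over those protein-coding genes and -0.04 over all genes. All 5 libraries of batch 2 lay above all 5 of batch 1 in 40 carriers (22.9%, beside 15.3% of all genes) and below in 20 (11.4%, beside 14.5%). The direction depended on the scale: on log2(TPM + 1) with limma, 17 carriers were higher in batch 2 and 51 lower (6.4% and 34% of all genes tested), and on log2(TPM + 0.1) 17 and 52 (6.41% and 34.5%). The all-gene median moved from -0.04 in CPM to -0.11 and -0.20 on these scales, and relative to it the carriers' median stood at 0.12, 0.01 and 0.09. The 36 genes lower in CPM were also called lower in TPM, and of the 65 higher ones 17 were called higher in TPM, 13 lay below 0 there and 1 of these, Slc25a51, singled out after its values were seen, was called lower. With the labelled batch in place of that in the file names, edgeR called 0 carriers, with 16 at an unadjusted p under 0.05 (9.14%, beside 8.73% of all genes tested).

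By class, 16 of 37 mitochondrial carriers were higher in batch 2 in CPM and 6 lower, 12 of 24 metal carriers higher and 3 lower, and 10 of 20 nucleotide sugar carriers higher and 1 lower. Of 23 ion carriers 4 were higher and 9 lower, and of 10 sugar carriers 0 were higher and 3 lower. The mitochondrial shares, 43.2% higher and 16.2% lower, stood near the 40.5% and 20.5% of the expressed protein-coding genes. On log2(TPM + 1) the 5 classes gave 6 higher and 9 lower, 1 and 4, 1 and 1, 1 and 11, and 0 and 6, where 8.74% of those protein-coding genes were higher and 30.7% lower. Relative to the median of those protein-coding genes, the class medians were 0.04 for mitochondrial, 0.04 for metal, 0.03 for nucleotide sugar, -0.11 for ion and -0.14 for sugar carriers in CPM. On log2(TPM + 1) they were 0.07, 0.05, 0.05, -0.07 and -0.16, and no class was tested against other genes. The mast cell and basophil markers moved with the batch as well, with 6 of 12 higher (Cma1, Tpsb2, Mcpt4, Mcpt8, Prss34 and Hdc) and 2 lower (Ms4a2 and Tph1) in batch 2, and summed ranges of 56799 to 63319 TPM in batch 1 and 56922 to 69171 TPM in batch 2. Of 4 megakaryocyte markers 2 were lower, Pf4 and Itga2b (summed ranges 1285 to 1633 TPM and 935 to 1132 TPM), of 6 monocyte markers 2 were higher, Ly6c2 and Ccr2, and Cd34 was higher. The part of these markers in the carrier differences was not tested, and in bulk RNA fewer cells of a type cannot be told apart from less RNA per cell.

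**Figure D3:**
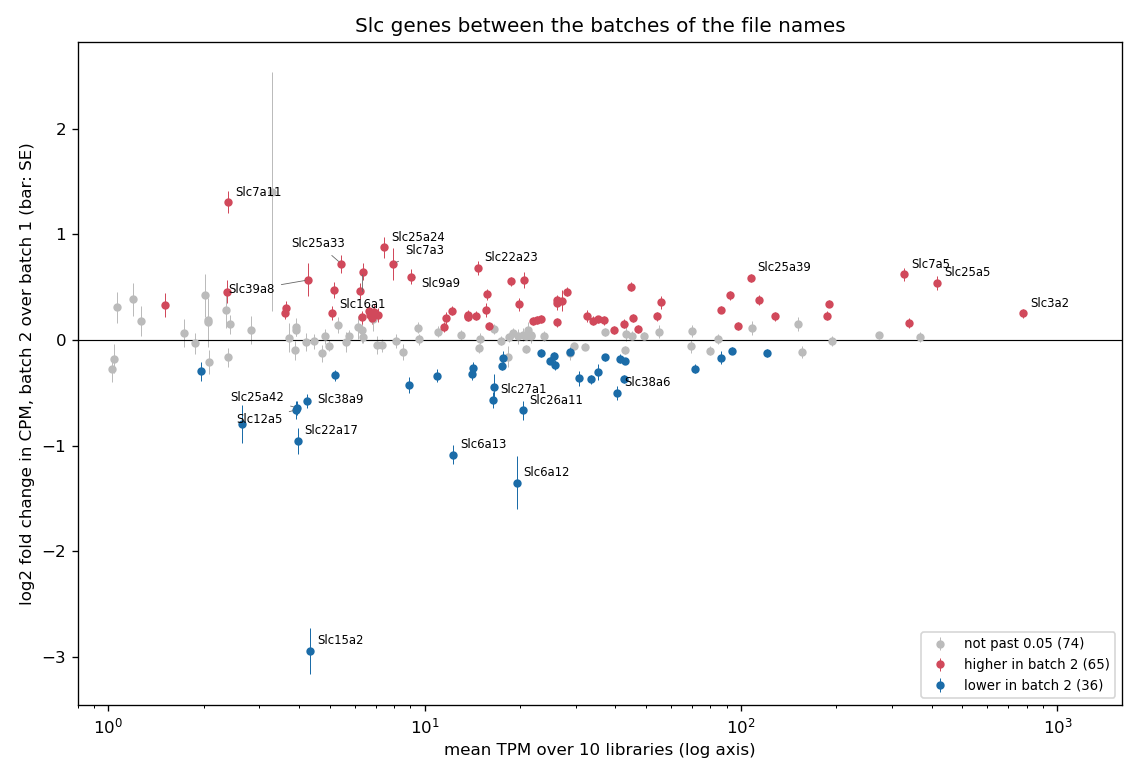
Log2 fold change in CPM of batch 2 over batch 1, with the construct class in the fit, against mean TPM (log axis) for the 175 genes, with bars for the SE. The 65 higher genes are in red and the 36 lower in blue, from Slc7a11 at 1.31 down to Slc15a2 at -2.94, and the grey point with the long bar is Slc27a3.

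Amino acid carriers split between the directions, 11 of 29 higher in batch 2 and 9 lower in CPM, and 5 and 12 on log2(TPM + 1). Beside this, 37.1% of the 175 genes were higher and 20.6% lower in CPM, and 9.71% and 29.1% in TPM. Over all genes tested the shares were 26.6% and 25.9%, and 6.4% and 34%. In CPM the rises stood near the share of expressed protein-coding genes given above and the falls above theirs, and the class was not tested against other genes. The cystine carrier Slc7a11 had the largest rise of the 65. It stood at 7.89, 6.63, 7.15, 6.64 and 6.78 CPM in batch 1 and 17.7, 23.1, 16.7, 13.8 and 16.4 CPM in batch 2, with no overlap, a log2 fold change of 1.31 ± 0.10 (SE; edgeR, adjusted p = 8.55e-06) in CPM and of 0.59 (limma, adjusted p = 0.00118) on log2(TPM + 1). Slc7a5 stood at 819.8, 706, 631, 609 and 592 CPM in batch 1 and 1120.1, 924, 1006, 1069.9 and 1021 CPM in batch 2, also without overlap, at 0.62 ± 0.06 (SE; edgeR, adjusted p = 2.89e-05). Its heavy chain Slc3a2 rose by 0.25 ± 0.04 (SE; edgeR, adjusted p = 5.61e-04) in CPM, and the cationic amino acid carriers Slc7a3 and Slc7a1 by 0.72 ± 0.15 (adjusted p = 0.00374) and 0.35 ± 0.07 (adjusted p = 0.00162) by edgeR. Slc1a4, which carries alanine, serine and cysteine, rose by 0.56 ± 0.04 (SE; edgeR, adjusted p = 8.01e-06) and Slc38a1 by 0.46 ± 0.04 (SE; edgeR, adjusted p = 2.61e-05). Slc7a11, Slc7a5, Slc7a3, Slc1a4 and Slc38a1 were the 5 amino acid carriers called higher in TPM as well. The light chain Slc7a6 went the other way at -0.30 ± 0.08 (SE; edgeR, adjusted p = 0.00854), while Slc7a8 stood at 0.03 ± 0.05 (SE; edgeR, adjusted p = 0.641) and did not pass the test.

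Genes of amino acid carriers are known targets of the factor ATF4, which binds a CEBP-ATF response element, and the promoters of 3 carriers that were higher in batch 2, the 2 with the element and 1 without it, are shown for this reason. The element was searched as TGATGNAA on both strands in the RefSeq windows of GRCm38.p6 from 250 bases before to 50 after the start, which held 134 of the 175 genes. In all, 3.97% of 32851 windows held it. Among the 7 of the 11 higher amino acid carriers with a window, Slc7a11 held 2 matches, starting 66 and 47 bases before the start on opposite strands, and Slc1a4 held 1 match starting 4 bases before it. The other 5 held none, namely Slc3a2, Slc7a1, Slc6a9, Slc36a4 and Slc38a10, and sequence outside the windows was not searched. Slc7a5, Slc7a3 and Slc38a1 were among the higher carriers without a window. By gene this is 2 of 7, beside 1 of 15 among the amino acid carriers not called higher and 4.51% of 27025 genes. Searches for 2 other motifs were also run. TGTGGT (RUNX core) was in 2 of 7 and 5 of 15, beside 18.9% of all genes. CACGTG (E-box) was in 0 of 7 and 2 of 15, beside 8.09%. Capitals mark the matches to TGATGNAA, and all 3 genes lie on the minus strand, at chr3:50443564-50443863, chr11:20332664-20332963 and chr19:8713848-8714147.
Slc7a11: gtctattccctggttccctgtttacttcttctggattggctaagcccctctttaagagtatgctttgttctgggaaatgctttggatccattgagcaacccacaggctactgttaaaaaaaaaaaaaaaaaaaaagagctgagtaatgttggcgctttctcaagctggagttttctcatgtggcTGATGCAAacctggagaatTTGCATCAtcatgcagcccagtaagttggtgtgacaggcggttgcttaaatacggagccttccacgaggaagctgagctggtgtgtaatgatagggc
Slc3a2: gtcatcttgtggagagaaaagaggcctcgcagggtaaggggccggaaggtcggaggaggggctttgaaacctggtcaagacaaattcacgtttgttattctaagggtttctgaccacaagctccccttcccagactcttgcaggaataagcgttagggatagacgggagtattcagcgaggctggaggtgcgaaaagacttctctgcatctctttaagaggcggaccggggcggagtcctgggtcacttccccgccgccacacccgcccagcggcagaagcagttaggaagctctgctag
Slc1a4: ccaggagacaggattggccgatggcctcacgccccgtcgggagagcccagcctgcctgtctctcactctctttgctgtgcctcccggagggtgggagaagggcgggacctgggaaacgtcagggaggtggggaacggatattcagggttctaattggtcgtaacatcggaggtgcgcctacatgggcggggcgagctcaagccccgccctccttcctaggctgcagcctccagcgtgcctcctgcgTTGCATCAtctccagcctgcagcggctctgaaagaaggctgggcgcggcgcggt
A match of letters is not a binding site, and 3.21% of the carriers' own windows held TGATGNAA.

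The 3 largest falls among carriers of 5 CPM or more were also in this class. The peptide carrier Slc15a2 stood at 7.06, 7.91, 8.82, 11.4 and 8.34 CPM in batch 1 and 1.59, 0.879, 0.969, 0.759 and 1.49 CPM in batch 2, a log2 fold change of -2.94 ± 0.22 (SE; edgeR, adjusted p = 1.53e-05), and only 26.7% of its level came from coding transcripts. Slc6a13 and Slc6a12, which carry GABA and, respectively, taurine or betaine, lie next to each other on chromosome 6, 5343 bases apart. Slc6a13 stood at 19.9, 28.9, 22.9, 32.9 and 29.8 CPM in batch 1 and 9.68, 14.8, 12.8, 12.6 and 13.5 CPM in batch 2, at -1.08 ± 0.09 (SE; edgeR, adjusted p = 1.38e-05). Slc6a12 stood at 11.5, 32.7, 24.5, 32.5 and 26.5 CPM in batch 1 and 3.53, 22.4, 13.1, 6.24 and 9.76 CPM in batch 2, where EV replicate 1 of batch 1 fell among the batch 2 values, and gave -1.35 ± 0.25 (SE; edgeR, adjusted p = 0.00343). Slc38a9, the lysosomal arginine sensor, and Slc38a6 changed by -0.58 ± 0.07 (adjusted p = 5.49e-05) and -0.50 ± 0.07 (adjusted p = 2.54e-04) by edgeR.

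**Figure D4:**
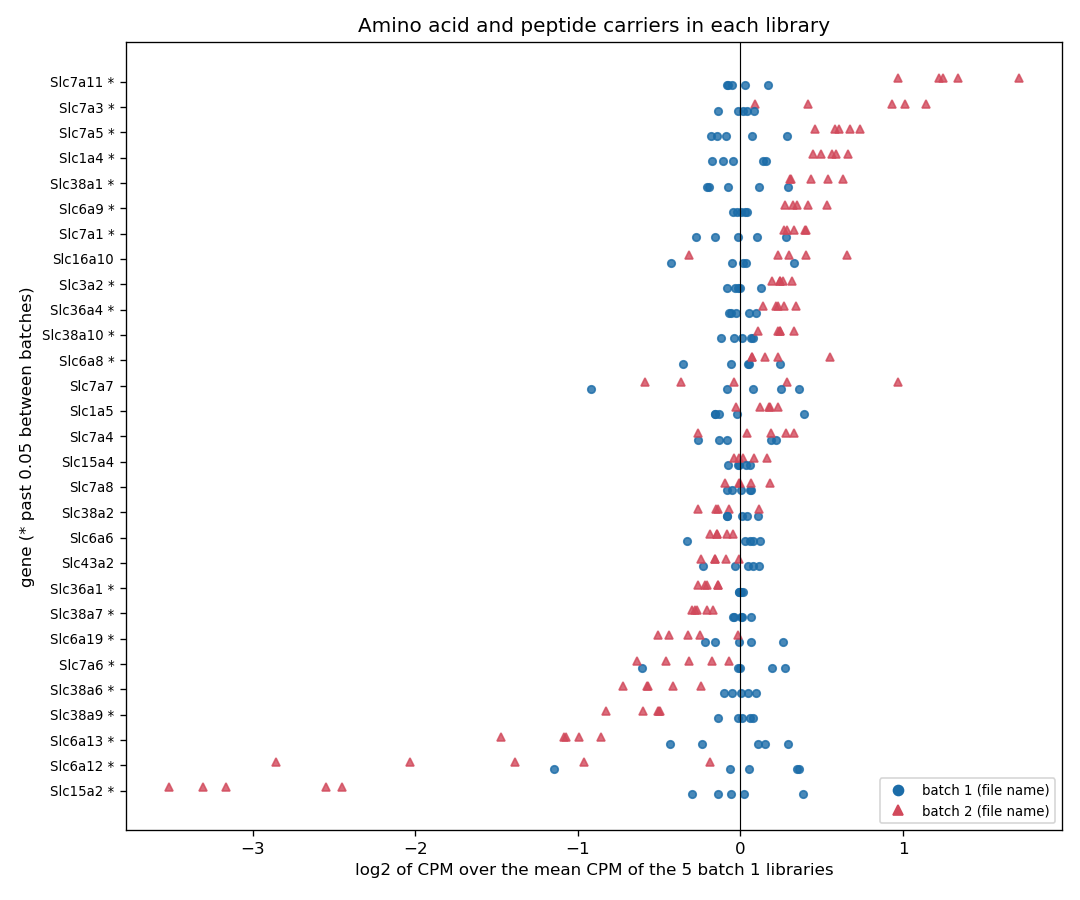
Log2 of the CPM of each library over the mean CPM of the 5 batch 1 libraries for the 29 amino acid and peptide carriers, with circles for batch 1 and triangles for batch 2 and a star where the batches differed at an adjusted p under 0.05. The 11 genes with a star to the right and the 9 to the left show the split, from Slc7a11 at the top to Slc15a2 at the bottom.

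Outside the amino acid carriers, mitochondrial carriers were among the largest rises in batch 2. Slc25a24 stood at 10.3, 16.4, 16.4, 11 and 13.6 CPM in batch 1 and 16.8, 29.9, 26.8, 23.7 and 28.1 CPM in batch 2, the batches not overlapping, and gave 0.88 ± 0.10 (SE; edgeR, adjusted p = 7.99e-05). The pyrimidine nucleotide carrier Slc25a33 and Slc25a39 rose by 0.72 ± 0.08 (adjusted p = 6.41e-05) and 0.59 ± 0.04 (adjusted p = 4.36e-06) by edgeR. The adenine nucleotide translocase Slc25a5 rose by 0.54 ± 0.07 (SE; edgeR, adjusted p = 9.87e-05), whereas Slc25a4 stood at 0.09 ± 0.06 (SE; edgeR, adjusted p = 0.207). The lactate carrier Slc16a1 stood at 17.3, 17.9, 15.6, 16.3 and 17.7 CPM in batch 1 and 21.2, 26.6, 30.5, 29.6 and 25.9 CPM in batch 2, or 0.65 ± 0.08 (SE; edgeR, adjusted p = 1.25e-04). Slc22a23 rose by 0.68 ± 0.07 (adjusted p = 3.16e-05), Slc9a9 by 0.60 ± 0.07 (adjusted p = 6.78e-05) and the zinc carrier Slc39a8 by 0.57 ± 0.16 (adjusted p = 0.0134) by edgeR. Apart from Slc39a8, which was not called higher in TPM, all of these genes and Slc25a5 were called higher in TPM too.

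Among other carriers of 5 CPM or more in their higher batch, the largest falls were those of Slc22a17 at -0.95 ± 0.12 (SE; edgeR, adjusted p = 1.22e-04), the anion carrier Slc26a11 at -0.67 ± 0.09 (adjusted p = 1.85e-04) and the potassium-chloride cotransporter Slc12a5 at -0.66 ± 0.09 (adjusted p = 1.23e-04). The coenzyme A carrier Slc25a42 changed by -0.64 ± 0.07 (adjusted p = 3.80e-05) and the fatty acid carrier Slc27a1 by -0.57 ± 0.08 (adjusted p = 2.65e-04), both by edgeR. Slc26a11 stood at 43.9, 39, 38.2, 46.3 and 40.8 CPM in batch 1 and 30.6, 22.5, 21.7, 28.1 and 28.8 CPM in batch 2, with the EV library of batch 2 the highest of its batch. The construct genes Slc41a1, Slc12a7, Slc45a4, Slc52a3 and Slc4a11 did not pass the test between batches, with log2 differences from -0.16 to 0.19. Of the low construct genes, Slc12a9 was lower in batch 2, at -0.80 (edgeR, adjusted p = 0.00391). Slc22a21 did not pass, at -0.17 (edgeR, adjusted p = 0.296).

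Whether a construct effect differed between the batches was tested with an interaction term, which has 1 EV library per batch. By edgeR 0 of the 175 genes and 0 of all genes passed at an adjusted p under 0.05, with 15 carriers at an unadjusted p under 0.05 (8.57%, beside 7.46% of all genes tested), and DESeq2 called 0 carriers. The smallest adjusted p among the 175 was that of the taurine carrier Slc6a6, with -0.37 ± 0.09 (SE; edgeR, adjusted p = 0.342) on the log2 scale.

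Carriers without an Slc symbol and partner proteins were read for comparison from lists of known genes. Of 40 such carriers 33 were tested, and the organic anion carrier Slco2b1 alone passed the test without the block, with a log2 difference of 0.99 ± 0.15 (SE; edgeR, adjusted p = 0.0270) with full-length ASXL2 and 0.88 ± 0.13 (adjusted p = 0.0123) with the mutants. Of all genes tested, 0.685% and 1.47% rose in these 2 comparisons. With the block 3 of the 33 rose and 0 fell with full-length ASXL2 (Slco2b1, Mfsd12 and Unc93b1), beside 3.85% and 1.22% of all genes. With the mutants 2 rose (Slco2b1 and Unc93b1) and 2 fell (Sfxn1 and Spns3), beside 6.82% and 3.99%. Between batches 12 of the 33 were higher and 7 lower in CPM, where 26.6% and 25.9% of all genes tested were. They ran from the mitochondrial serine carrier Sfxn1 at 0.49 ± 0.05 to Slco3a1 at -1.92 ± 0.32, which averaged only 0.214 TPM. Of the 3 proteins that bring monocarboxylate carriers to the cell surface, Bsg averaged 362 TPM, Nptn 131 TPM and Emb 35.1 TPM. Emb fell with the block by edgeR in both construct comparisons, at -0.93 ± 0.10 (adjusted p = 6.57e-04) and -0.75 ± 0.07 (adjusted p = 2.26e-04). Between batches all 3 passed edgeR's test in CPM, 2 higher in batch 2, among them Emb by 0.63 ± 0.06, and 1 lower. Their summed level ran from 533 to 593 TPM in batch 1 and from 472 to 520 TPM in batch 2.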

How the data were processed

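The 10 libraries were made from polyA RNA, and kallisto, DESeq2 and mm10 are named in the submitters' processing notes, without versions or roles. The authors deposited 1 table per library with estimated counts and TPM per transcript, per the file headers. Of 115088 transcripts 99.2% matched GENCODE M21 (GRCm38/mm10) by ID and were summed per gene, with 99.3 to 99.6% of estimated counts matched. Estimated counts were rounded. Library totals of 52422686 to 79320702 set the counting precision.

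Genes passing filterByExpr (10 counts, smallest class of 2) were kept, 17810 in all. The 3 classes (empty vector, full-length, pooled mutants) were compared with the robust quasi-likelihood test of edgeR 4.0.16 (R 4.3.3, TMM, Benjamini-Hochberg over all genes, threshold 0.05), without a block. Fits with the batch of the file names or of the labels as a block, DESeq2 1.42.0, limma 3.58.1 on log2(TPM + 1) and log2(TPM + 0.1), other filters, and fits without each library were alternatives. A fit on protein-coding transcripts only was added after seeing the data. The batch comparison had the class as a term. CPM values are TMM-scaled. Sums, tables and plots used pandas 2.3.3, matplotlib 3.10.9 and numpy 2.4.6 under Python 3.11.15, and the fits were tested on simulated data. No strand setting is stated, so overlapping genes on opposite strands (such as Slc48a1 and Hdac7) cannot be told apart, and near-identical copies (Slc25a4 and Slc25a5, Slc22a5 and Slc22a21) are uncertain.

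Members and lists were chosen with earlier results of these data known, and the class of Slc4a1ap (not a carrier) was set after its values were seen. Named genes were the 12 highest and the 2 highest of each substrate class; in each comparison up to 10 rises and 10 falls past the threshold with 5 CPM or more, filled from the fit with the file-name block; the genes nearest the TPM threshold; and the heavy and light chains of the amino acid exchangers. Not every gene that the rule names is reported here. Over label replicate numbers, deviations correlated at 0.491 between EV and mutant 2, 0.525 between EV and full-length and 0.578 between mutant 2 and full-length, and from -0.145 to 0.0169 in the other 7 pairs of groups, so the label numbers did not pair all groups.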

Additional observations from a re-analysis of the deposited data

Results flagged for a closer look

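In 8 of the 175 genes, 1 of the 6 pooled mutant libraries lay apart from the other 5 in CPM by Dixon's criterion (a gap over 0.625 of the group's range). The nominal chance rate of the criterion is about 1 in 20 groups, and these 8 are 4.57% of the genes, so the count is no higher than that. The pooled mutants mix 3 forms and both batches, so the nominal rate need not hold for them. The fatty acid carrier Slc27a3 stood furthest out, at 25.1 CPM in mutant 3 replicate 2 beside 1.84 CPM in the next library. Mutant 3 replicate 2 was also highest for the nucleoside carrier Slc29a3, at 15.2 CPM against 13.4 CPM. Mutant 3 replicate 1 was highest for Slc15a4, at 43.4 CPM against 39.6 CPM, and for Slc25a25, at 19.9 CPM against 14.6 CPM. Mutant 2 replicate 2 was highest for Slc25a3, at 302.8 CPM against 293 CPM, and for the light chain Slc7a7, at 4.33 CPM against 2.63 CPM, and lowest for Slc25a47, at 1.76 CPM against 2.24 CPM. Mutant 2 replicate 1 was lowest for Slc35d1, at 98.2 CPM against 106.2 CPM.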

How the results depend on the processing

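With full-length ASXL2 against EV, 6 carriers were called, 20 with the replicate block by the file-name batch (also on protein-coding transcripts only), 12 by DESeq2, 0 by limma on either TPM scale, 0 with only the 2 classes fitted and 2 of those at 5 TPM or more. Leaving out 1 library gave 0 to 5, and with the block 11, 16, 19, 20, 17, 22, 21, 20, 17 and 10 (without EV 1 and 2, mutant 1 replicates 1 and 2, mutant 2 replicates 1 and 2, mutant 3 replicates 1 and 2, full-length 1 and 2). With the mutants, 6 were called, 37 with the replicate block, 44 with the block on protein-coding transcripts, 17 by DESeq2, 2 and 3 by limma on log2(TPM + 1) and log2(TPM + 0.1) and 2 at 5 TPM or more. Leaving out 1 library gave 1 to 7, and with the block, in the same order, 9, 36, 28, 30, 24, 40, 36, 29, 31 and 34. Mutants against full-length ASXL2 gave 0, 1 by DESeq2, and 0 to 0 without 1 library, or 0 to 1 with the block. The batch comparison gave 101 calls, 87 to 106 without 1 library and 0 with the labelled batch in its place. The interaction gave 0, and 0 to 0 without 1 construct library. The label block gave 5 and 7 calls in the EV comparisons. The carriers' share of TPM was 0.782% without Mir6236, which held 38966 to 109219 TPM. Named genes kept direction in the alternatives run for them, 656 on the same side of the threshold and 177 no longer past it. The causes were not tested. With 2 EV libraries, the construct calls are limited by replicates.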
